A study of Mus musculus with 9 samples.

Results

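The genes of the primary cilium and of intraflagellar transport were examined as a set of 40 genes in RNA-seq of the mouse mandible. They were chosen by name, as the rows of the count table that carry the listed gene symbols. Earlier results of these data were known when the choice was made. All 40 were found among 27179 genes in the table and remained among 16329 genes tested after low counts were removed. They comprised 11 subunits of intraflagellar transport complex B (IFT-B), 6 of complex A (IFT-A), 7 of the BBSome, 3 genes of BBSome assembly and recruitment, 4 motor subunits, 3 genes of ciliary membrane traffic and Hedgehog adaptation, 4 transition zone genes and 2 genes of the EvC complex. Whole mandibles with their teeth came from 5 wild type (WT) mice and 4 mice labelled *FcγRIIB*-/-. The authors describe the latter as a lupus model, and by their label they lack the inhibitory Fc receptor. All mice were 6 months old and of the C57BL/6 strain, the mice labelled *FcγRIIB*-/- were males, and each library held the poly(A) RNA of 1 mouse. The comparison of these groups asks what the mandible expresses differently when the receptor is deleted.

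The primary cilium is a single, non-motile projection built on the mother centriole of most skeletal and connective tissue cells. IFT-B with kinesin-2 carries cargo towards its tip, IFT-A with cytoplasmic dynein 2 carries cargo back, the BBSome moves membrane proteins out, and the transition zone gates what enters. Hedgehog signaling in mammals runs through this organelle: its receptors and Gli factors move through the cilium, and inherited defects of many of the genes below cause skeletal or craniofacial malformation.

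Libraries held 24158960 to 26787359 counts in WT and 21453880 to 28991631 counts in the libraries labelled *FcγRIIB*-/-. The targeted gene did not follow its label. In order of replicate, as throughout, the WT mice had 577, 954, 442, 630 and 529 counts of *Fcgr2b*, and the mice labelled *FcγRIIB*-/- had 757, 562, 628 and 634. The ranges overlapped, and their log2 fold change was 0.21 (SE 0.20, adjusted p = 0.442 by edgeR), or 0.46 with adjusted p = 0.0131 when WT replicate 2 was left out. The counts do not show which exons were read, so directions below are between libraries by their labels. Osteoblast markers, a check of the labelled tissue, summed to 46192 to 67173 CPM in WT, where CPM is the count scaled to 1e6 of TMM-normalized library size, and to 43390 to 53544 CPM in the libraries labelled *FcγRIIB*-/-. These sums were carried mostly by *Col1a1* and *Col1a2*, with WT means of 31252 and 18057 CPM, and say little of the other markers. Markers of several other cell types differed between the groups and are given with the results they accompany.

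Few of the cilium genes differed between the groups, and those that did changed by less than 1 on the log2 scale. Of the 40 genes, 2 were upregulated (*Kif7* and *Arl6*), 3 were downregulated (*Ift140*, *Gpr161* and *Dync2h1*) and 35 did not pass an adjusted p of 0.05 (edgeR's quasi-likelihood test with Benjamini-Hochberg adjustment over all tested genes). This is 12.5% of the set, against 33.3% of all tested genes, of which 14% were called higher and 19.3% lower. Before adjustment 7 of the 40 had p under 0.05, the 5 called genes, *Ift172* and *Ift57*, as did 7225 of all 16329 tested genes. DESeq2 called 6 of the 40, the same 5 and *Ift172*, and 37.0% of all tested genes. Neither count held a subunit of the BBSome or a gene of the transition zone or the EvC complex. The groups were apart, with every mouse of 1 group above every mouse of the other, for 4 of the 40 genes, against 29.6% of all tested genes. The median absolute log2 fold change was 0.138 in the set and 0.238 over all tested genes. The largest was 0.64, for *Ift140*, and the largest over all tested genes was 9.0. The median of the mean CPM in the WT mice was 18.5 for the cilium genes and 22.1 for all tested genes. The median standard error (SE) of the log2 fold change was 0.0968 against 0.117.

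A gene that misses the threshold is not shown to be equal, so the interval of each difference was examined as well. The 95% interval of the log2 fold change lay wholly within 0.5 on either side of 0 for 31 of the 40 genes (77.5%), against 46.7% of all tested genes. The 9 genes whose interval reached further were *Ift140*, *Kif7*, *Gpr161* and *Arl6*, which were called, and *Ift57*, *Wdr19*, *Bbs10*, *Mks1* and *Tctn1*, which were not. Of the 40 log2 fold changes 28 were above 0, with a median of 0.09, while 8260 of all 16329 were above 0, with a median of 0.01. This lean depended on the scaling: with library totals alone 21 of the 40 were above 0 and the median was 0.01, and higher genes made up 25.7% of all called genes in place of 42.1%. No scaling moved the median of all genes by more than 0.1 on the log2 scale.

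**Figure D1:**
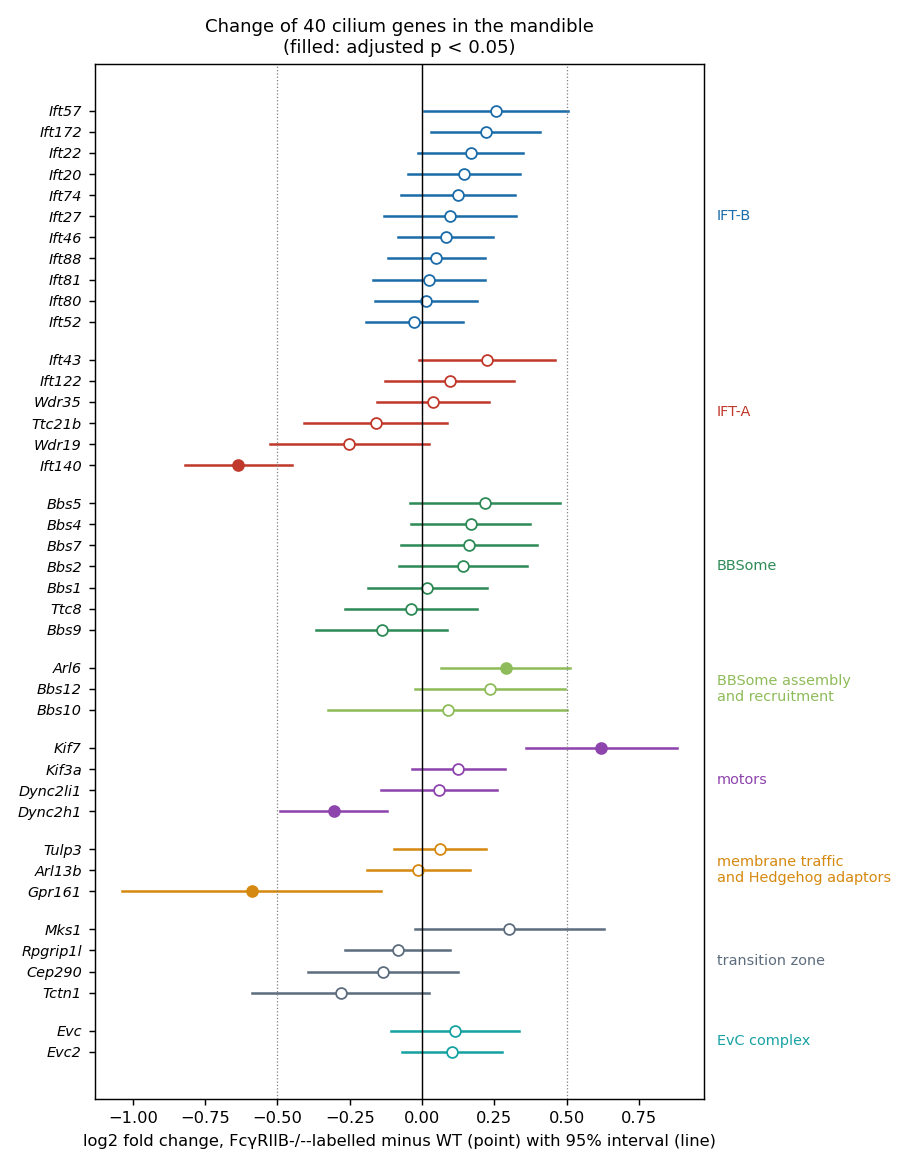
Log2 fold change (horizontal axis, the libraries labelled *FcγRIIB*-/- minus WT) of each of the 40 cilium genes, grouped by role, with the 95% interval as a line and filled points for adjusted p under 0.05. Filled points are *Kif7* and *Arl6* on the right and *Ift140*, *Gpr161* and *Dync2h1* on the left, and 31 of 40 lines stay between the dotted lines at 0.5 on either side of 0.

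Summed over the 40 genes, the level was 864 to 986 CPM in the 5 WT mice and 934 to 984 CPM in the 4 mice labelled *FcγRIIB*-/-, so the 4 lay within the WT range. In tissue RNA of this kind, fewer ciliated cells and less RNA per cell cannot be told apart.

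*Ift140*, the largest change in the set, encodes a core subunit of IFT-A, which is needed for retrograde transport and for the entry of membrane receptors. The gene (identifier 106633) lies at chr17:25016083-25099499 on the plus strand of GRCm38.p6 (mm10, RefSeq). Its level was 32.9, 39.2, 35.9, 35.1 and 37.7 CPM in WT replicates 1 to 5, and 26.3, 22.4, 20.8 and 23.7 CPM in the 4 libraries labelled *FcγRIIB*-/-. Every mouse labelled *FcγRIIB*-/- was below every WT mouse. The means were 36.2 ± 2.44 CPM (SD, n = 5) and 23.3 ± 2.33 CPM (SD, n = 4), a log2 fold change of -0.64 (SE 0.084, 95% interval -0.82 to -0.45, adjusted p = 6.99e-04 by edgeR). A two-sided exact permutation test over the 126 splits of the 9 mice gave p = 0.00794, the smallest it can give. Leaving out each mouse in turn kept the call, with log2 fold changes from -0.70 to -0.58. No exon base of *Ift140* is shared with another annotated gene. The sequence around its annotated start, chr17:25015836-25016135 on the plus strand, is shown because this gene fell most. It runs from 250 bases upstream to 50 bases downstream, and the capitals mark the letters GGCAAC, a half-site of the X-box described below, read on the opposite strand.
Ift140: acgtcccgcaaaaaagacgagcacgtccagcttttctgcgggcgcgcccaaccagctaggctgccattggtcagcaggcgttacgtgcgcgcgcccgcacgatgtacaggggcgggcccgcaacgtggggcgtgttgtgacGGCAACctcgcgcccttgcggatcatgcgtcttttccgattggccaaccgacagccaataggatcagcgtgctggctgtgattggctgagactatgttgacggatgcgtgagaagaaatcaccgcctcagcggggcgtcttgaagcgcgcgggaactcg

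*Kif7* rose by about as much as *Ift140* fell. Its product, a kinesin of the ciliary tip, organizes the tip compartment where Gli factors and *Sufu* gather, and it acts on Hedgehog signaling as both a negative and a positive factor. The gene (identifier 16576) lies at chr7:79698098-79715772 on the minus strand. Its level was 24.2, 23.2, 31.7, 26.1 and 20.1 CPM in WT replicates 1 to 5, and 35.2, 39.2, 37.4 and 42.4 CPM in the 4 libraries labelled *FcγRIIB*-/-. The groups did not overlap, and WT replicate 3 came closest to the other group. The means were 25.1 ± 4.28 CPM (SD, n = 5) and 38.6 ± 3.04 CPM (SD, n = 4), a log2 fold change of 0.62 (SE 0.118, 95% interval 0.36 to 0.88, adjusted p = 0.00348 from edgeR). The two-sided exact permutation test gave p = 0.0159. *Kif7* stayed past the threshold without each mouse in turn, with log2 fold changes from 0.57 to 0.73. Its count carries a limit: 20.3% of its exon bases also lie in genes on the opposite strand, 19.1% in the antisense RNA *9330171B17Rik* and 1.11% in *Ticrr*. The libraries were directional, but the strand setting of the counting is not given in the sources used here, so reads of these genes cannot be told apart from those of *Kif7* with certainty. *Ticrr* itself had a log2 fold change of -0.99, opposite to that of *Kif7*, and *9330171B17Rik* was not analysed here. The sequence around the start of *Kif7*, chr7:79715658-79715957 read on the minus strand, is shown as that of the gene that rose most, and it holds none of the X-box letters searched, so no letters are in capitals.
Kif7: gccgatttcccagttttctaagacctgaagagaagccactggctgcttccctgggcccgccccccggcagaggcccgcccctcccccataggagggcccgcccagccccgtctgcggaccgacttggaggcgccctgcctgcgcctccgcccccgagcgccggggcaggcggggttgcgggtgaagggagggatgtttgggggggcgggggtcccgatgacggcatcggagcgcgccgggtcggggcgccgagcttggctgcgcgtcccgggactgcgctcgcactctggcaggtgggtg

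*Dync2h1*, the motor heavy chain of cytoplasmic dynein 2, drives the return of IFT trains to the ciliary base, and its loss causes short-rib skeletal dysplasia. It lies at chr9:6928550-7178306 on the minus strand. It was downregulated, but its groups overlapped, so its values per mouse fell outside the rule for named genes and were chosen after they were seen. Its level was 23.2, 27.2, 28.5, 28.5 and 26.5 CPM in WT replicates 1 to 5, and 23.7, 22.1, 21.2 and 19.6 CPM in the 4 libraries labelled *FcγRIIB*-/-. Only WT replicate 1 lay below a mouse labelled *FcγRIIB*-/-, replicate 1. Its log2 fold change was -0.31 (SE 0.0837, 95% interval -0.49 to -0.12, adjusted p = 0.0185 from edgeR), with a two-sided exact permutation p of 0.0238. Without WT replicate 4 it was -0.26 with adjusted p = 0.0574, and the call was lost. Its light intermediate chain, *Dync2li1*, had a log2 fold change of 0.06 (95% interval -0.14 to 0.26). The start window of *Dync2h1*, chr9:7177009-7177308 read on the minus strand, lies inside the gene span given above. It does not cover the outer start at 7178306. It is shown because, like that of *Ift140*, it holds the half-site read on the opposite strand, in capitals, here in the downstream end of the window.
Dync2h1: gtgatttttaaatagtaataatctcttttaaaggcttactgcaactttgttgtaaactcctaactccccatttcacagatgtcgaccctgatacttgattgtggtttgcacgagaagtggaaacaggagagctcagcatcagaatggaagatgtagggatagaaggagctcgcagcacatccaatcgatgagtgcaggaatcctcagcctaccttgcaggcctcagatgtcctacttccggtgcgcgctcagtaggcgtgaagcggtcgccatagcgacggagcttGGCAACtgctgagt

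*Gpr161* encodes an orphan receptor of the cilium that raises cyclic AMP and thereby keeps Hedgehog targets repressed until the pathway is switched on. It had the lowest level per exon length of the set, with 88 to 109 counts in WT and 32 to 74 counts in the libraries labelled *FcγRIIB*-/-, so counting error weighs more in it than in the others. Its level was 3.66, 3.53, 4.20, 3.49 and 3.51 CPM in WT replicates 1 to 5, and 2.31, 3.42, 2.41 and 1.62 CPM in the 4 libraries labelled *FcγRIIB*-/-. The groups were apart by a small margin, set by replicate 2 of the latter. The log2 fold change was -0.59 (SE 0.203, 95% interval -1.04 to -0.14, adjusted p = 0.0457 from edgeR), with a two-sided exact permutation p of 0.00794. The call stood in 1 of 9 fits that left out a mouse, the one without replicate 2 of the libraries labelled *FcγRIIB*-/- (log2 fold change -0.79, adjusted p = 0.0143), and the other 8 fits gave adjusted p from 0.0700 to 0.103. *Gpr161* lies at chr1:165281184-165326747, 5633811 bases from *Fcgr2b* (chr1:170960558-170976071). Within 10 Mb to either side of *Fcgr2b*, 87 of 186 tested genes were called (46.8%), against 33.3% of all tested genes. Whether the position of *Gpr161* bears on its change was not tested.

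*Arl6*, a small GTPase that recruits the BBSome to membranes, was the other upregulated gene. It lies at chr16:59612949-59639409 on the minus strand. Its level was 11.6, 12.6, 11.6, 12.5 and 12.1 CPM in WT replicates 1 to 5, and 14.2, 12.8, 17.8 and 14.2 CPM in the 4 libraries labelled *FcγRIIB*-/-. The groups did not overlap, although WT replicate 2 and replicate 2 of the libraries labelled *FcγRIIB*-/- lay close together. The log2 fold change was 0.29 (SE 0.101, 95% interval 0.07 to 0.51, adjusted p = 0.0486 from edgeR), with a two-sided exact permutation p of 0.00794. As for *Gpr161*, the call stood in 1 of 9 fits that left out a mouse, without replicate 2 of the libraries labelled *FcγRIIB*-/- (log2 fold change 0.35, adjusted p = 0.0310), and the other 8 gave adjusted p from 0.0567 to 0.111.

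**Figure D2:**
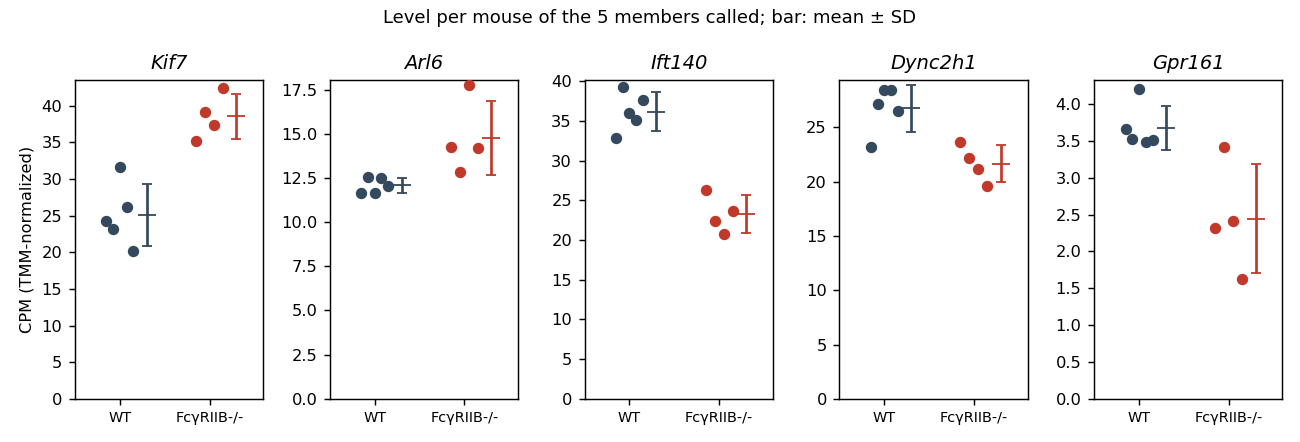
Level in CPM (vertical axis from 0, TMM-normalized) of the 5 cilium genes that passed the test, with 1 point per mouse and the mean ± SD beside it for 5 WT and 4 mice labelled *FcγRIIB*-/-. The groups are apart for *Kif7*, *Arl6*, *Ift140* and *Gpr161*, by a small margin in *Arl6* and *Gpr161*, and overlap in *Dync2h1*.

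IFT-B, the complex that builds the cilium, held no called gene among its 11 subunits. Their log2 fold changes had a median of 0.10 and ran from -0.03 in *Ift52* to 0.26 in *Ift57*. Of the 11, 10 were above 0, as were 8260 of all 16329 tested genes. With library totals alone as the scaling, *Ift80* (-0.063), *Ift81* (-0.049) and *Ift88* (-0.029) were also below 0. *Ift88*, *Ift52* and *Ift46*, subunits of the stable core, had log2 fold changes of 0.05, -0.03 and 0.08. *Ift74* and *Ift81*, which bind tubulin, had 0.12 and 0.02. The small GTPases *Ift22* and *Ift27* had 0.17 and 0.10, *Ift20*, which also acts at the Golgi, had 0.15, and *Ift80*, a gene of short-rib dysplasia, had 0.01. The nearest to the threshold were *Ift172*, which acts in the turn-around at the tip, with 0.22 (95% interval 0.03 to 0.41, adjusted p = 0.0684 from edgeR), and *Ift57*, with 0.26 (95% interval 0.01 to 0.505, adjusted p = 0.106). *Ift172* passed without WT replicate 3 (adjusted p = 0.0276) and without replicate 3 of the libraries labelled *FcγRIIB*-/- (adjusted p = 0.0291), and *Ift57* passed without WT replicate 2 (adjusted p = 0.0266).

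IFT-A had 1 called gene among its 6 subunits. Beside *Ift140*, the log2 fold changes of its other subunits were -0.25 for *Wdr19* and -0.16 for *Ttc21b*, and 0.23 for *Ift43*, 0.10 for *Ift122* and 0.04 for *Wdr35*, none of which passed. *Wdr19* passed as lower in 1 of 9 fits that left out a mouse, the one without replicate 2 of the libraries labelled *FcγRIIB*-/- (-0.36, adjusted p = 0.0407 from edgeR). The median over the 6 subunits was -0.06.

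None of the 7 BBSome subunits was called. *Bbs5*, *Bbs4*, *Bbs7* and *Bbs2* had log2 fold changes of 0.22, 0.17, 0.16 and 0.14, *Bbs1* had 0.02, *Ttc8* had -0.04 and *Bbs9* had -0.14. The chaperonin-like proteins *Bbs12* and *Bbs10*, which help to assemble the BBSome, had 0.23 and 0.09. The interval of *Bbs10* was wide, from -0.33 to 0.503, at levels of 3.67 ± 0.688 CPM (SD, n = 5) in WT and 3.90 ± 0.738 CPM (SD, n = 4) in the libraries labelled *FcγRIIB*-/-.

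*Kif3a*, the kinesin-2 motor of outward transport, had a log2 fold change of 0.13 (95% interval -0.03 to 0.29). *Tulp3*, which carries receptors into the cilium together with IFT-A, had 0.06, and *Arl13b*, the GTPase that marks the ciliary membrane, had -0.01. In the transition zone, *Mks1* had 0.30 (95% interval -0.03 to 0.63), *Rpgrip1l* had -0.08, *Cep290* had -0.14 and *Tctn1* had -0.28 (95% interval -0.59 to 0.02), and none of the 4 passed. The value of *Tctn1* is uncertain, since 25.5% of its exon bases lie in other genes, 19.0% in *Hvcn1* on the opposite strand, which had a log2 fold change of -1.37. *Evc* and *Evc2*, which bind *Smo* at the ciliary base and are mutated in Ellis-van Creveld syndrome, had log2 fold changes of 0.11 and 0.10.

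The 6 genes with the smallest change were chosen for it, and their values per mouse are given as a description. *Ift80* had 46.3, 53.5, 51.2, 51.6 and 43.5 CPM in WT replicates 1 to 5, and 47.6, 52.1, 53.5 and 45.4 CPM in the 4 libraries labelled *FcγRIIB*-/-. *Arl13b* had 25.1, 27.3, 29.9, 28.8 and 28.3 CPM in WT, and 25.7, 29.7, 30.0 and 25.2 CPM in the libraries labelled *FcγRIIB*-/-. In both genes the 4 mice lay within or at the edge of the WT range, and the 95% intervals of the log2 fold change were -0.16 to 0.19 and -0.19 to 0.17. *Bbs1* had 17.03, 16.9, 16.6, 16.7 and 14.7 CPM in WT, and 16.4, 18.9, 14.3 and 16.7 CPM in the libraries labelled *FcγRIIB*-/-. *Ift81* had 22.0, 25.2, 25.1, 24.7 and 21.6 CPM in WT, and 25.4, 24.5, 25.9 and 20.7 CPM in the libraries labelled *FcγRIIB*-/-. The spread between mice of 1 group exceeded the difference between the groups in each. *Ift52* had 30.2, 33.8, 35.5, 32.5 and 30.1 CPM in WT, and 33.1, 32.6, 28.5 and 33.2 CPM in the libraries labelled *FcγRIIB*-/-. *Wdr35* had 32.0, 32.1, 35.8, 36.1 and 27.2 CPM in WT, and 31.6, 32.7, 34.2 and 35.7 CPM in the libraries labelled *FcγRIIB*-/-. The lowest mouse was a WT mouse in *Wdr35* and a mouse labelled *FcγRIIB*-/- in *Ift52*.

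Levels were compared between genes per exon length, as CPM per kilobase of annotated exon. In WT, *Ift20* was highest at 27.1 ± 2.04 (SD, n = 5), followed by *Kif3a* at 12.8 ± 1.17 and *Ift52* at 11.6 ± 0.827. The median was 4.01 and *Gpr161* was lowest at 0.528 ± 0.0431. Of the 39 pairs of neighbours in this order, 36 overlapped within 1 SD of each other, so the exact rank of most genes is not resolved. The exceptions were *Ift20* above *Kif3a*, *Tctn1* above *Rpgrip1l*, and *Bbs10* above *Gpr161*. Between the groups, *Ift140* moved from rank 18 to rank 27 and *Kif7* from rank 14 to rank 8, and the other called genes moved by at most 1 rank.

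**Figure D3:**
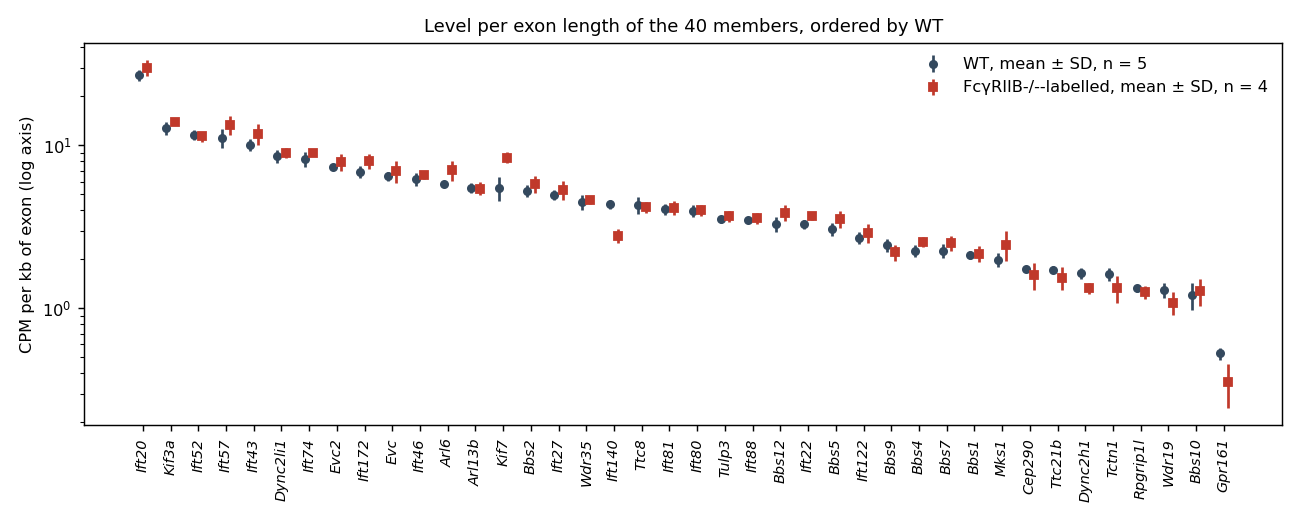
Level of each of the 40 genes in CPM per kilobase of exon (vertical log axis), ordered by the WT mean, with the mean ± SD of 5 WT and 4 mice labelled *FcγRIIB*-/-. The series runs from 27.1 in *Ift20* to 0.528 in *Gpr161* in WT, and the pairs of points stand clearly apart in *Kif7* and *Ift140*.

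Sequence at the starts of the genes, which the choice by name did not use, was searched for a known ciliary motif. The X-box, the site of RFX factors that switch on ciliary genes, is built from half-sites with the letters GTTGCC. RefSeq windows of GRCm38.p6 ran from 250 bases upstream to 50 bases downstream of an annotated start, which can lie inside the gene span. They were found for 36 of the 40 genes (38 windows, with 2 each for *Arl6* and *Gpr161*). None was found for *Ift80*, *Ift122*, *Ift81* and *Dync2li1*. GTTGCC or its reverse complement GGCAAC was present in 15 of 38 windows (39.5%), against 12.4% of 15776 windows of tested genes and 12.5% of 32851 windows in all. A looser paired form, GTNNCC and GGNNAC separated by 0 to 3 bases, reads the same on both strands and can contain the half-site. It was present in 8 of 38 windows (21.1%), against 4.48% of the windows of tested genes and 3.86% of all. The median GC content was 60% in the windows of the cilium genes and in those of tested genes. The start of *Ift57*, chr16:49699044-49699343 on the plus strand, held 2 paired matches and is shown whole with these in capitals, and the paired match alone is given for those of the other genes that also contain the half-site, and for *Wdr19* of IFT-A and *Bbs4*.
Ift57: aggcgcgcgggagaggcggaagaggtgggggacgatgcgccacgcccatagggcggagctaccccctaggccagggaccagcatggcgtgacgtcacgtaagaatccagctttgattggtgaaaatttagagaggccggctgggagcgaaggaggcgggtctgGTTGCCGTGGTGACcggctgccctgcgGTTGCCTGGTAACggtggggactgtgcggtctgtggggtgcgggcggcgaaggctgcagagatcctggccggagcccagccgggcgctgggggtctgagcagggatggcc
Tctn1: GTTGCCCGGGCAAC
Bbs1: GTTGCCAAGGCGAC
Bbs7: GTTGCCTTGGAAAC
Mks1: GTTGCCAGGGGAAC
Bbs4: GTCGCCCGGGAAAC
Wdr19: GTCTCCTGGGTGAC
*Ift22* held the remaining paired matches. Of the genes with a paired match, none was called, where 12.5% of the 40 genes and 33.3% of all tested genes were called. Of the 5 called genes, *Ift140* and *Dync2h1*, both lower, held the half-site, and *Kif7* and *Arl6*, both higher, and *Gpr161* did not. The windows of *Dync2h1* and *Gpr161* lie inside their gene spans, so the outer starts of these genes were not searched. Whether the half-site goes with the direction of change was not tested, and 5 genes are too few to show it. A match in letters is a description of the window and not evidence of binding.

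A wider list of 70 other cilium genes, of which 68 were tested, showed 12 higher and 3 lower, against 14% and 19.3% of all tested genes. Their median log2 fold change was 0.05. By role, 3 of 10 other IFT and BBS subunits, 3 of 9 other motors, 1 of 19 transition zone and inversin genes, 3 of 14 basal body genes and 2 of 11 genes of membrane traffic were higher. The lower ones were 1 motor and 2 basal body genes, and 5 cilium gene regulators had log2 fold changes from -0.38 to 0.20 without passing. The largest increases were in *Mkks*, a BBSome chaperonin (log2 fold change 0.43, adjusted p = 0.00778 from edgeR), *Dynlrb1*, a dynein light chain (0.40, adjusted p = 0.00234), *Rabl2* (0.36, adjusted p = 0.0263), *Rab3ip*, which activates Rab8 for ciliary membrane growth (0.36, adjusted p = 0.0112), and *Wdr60*, an intermediate chain of dynein 2 (0.35, adjusted p = 0.0170). The 3 that fell were *Alms1*, a centrosomal protein of Alström syndrome (-0.73, adjusted p = 0.00257), *Kif3b*, the partner of *Kif3a* (-0.38, adjusted p = 0.00589), and *Ttbk2*, the kinase that starts cilium assembly (-0.25, adjusted p = 0.0444). With library totals alone as the scaling, 5 of the 68 were higher and 5 lower.

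Genes of cilium disassembly, a step taken as cells re-enter the cycle, were lower in 6 of 7 tested, against 19.3% of all tested genes. Their median log2 fold change was -0.70. The 6 were *Nek2* (-1.33, adjusted p = 0.00313 from edgeR), *Kif24* (-1.10, adjusted p = 0.00104), *Aurka* (-0.80, adjusted p = 0.00887), *Plk1* (-0.70, adjusted p = 0.00575), *Nedd9* (-0.54, adjusted p = 0.00413) and *Kif2a* (-0.28, adjusted p = 0.00535). *Hdac6*, the tubulin deacetylase of this step, had 0.25 (adjusted p = 0.109). *Aurka*, *Plk1* and *Nek2* are also mitotic kinases, and 11 of 12 mitosis genes were lower, with a median of -0.89 and sums of 390 to 633 CPM in WT and 171 to 247 CPM in the libraries labelled *FcγRIIB*-/-. The part of cell division in these values was not tested. In the Hedgehog pathway, which the cilium serves, the ligand *Shh* and the target and effector *Gli1* were higher, with log2 fold changes of 1.26 and 0.60. The adjusted p was 0.00535 for *Shh* and 0.00884 for *Gli1* from edgeR. The paper states that its qPCR of *Gli1* went the opposite way to its RNA-seq. The paper lists qPCR primers for *Shh*, but does not name it among the upregulated genes increased by qPCR (*Pgam2*, *Plin4* and *Ucp3*). The rises of *Gli1* and *Shh* given here therefore rest on the counts alone. Lower were the inhibitor *Sufu* (-0.67) and the co-receptors *Boc* (-0.52), *Cdon* (-0.38) and *Gas1* (-0.28), and *Ptch1* and *Smo* had -0.57 and -0.15 without passing. For *Sufu*, the paper also reports a decrease by qPCR.

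**Figure D4:**
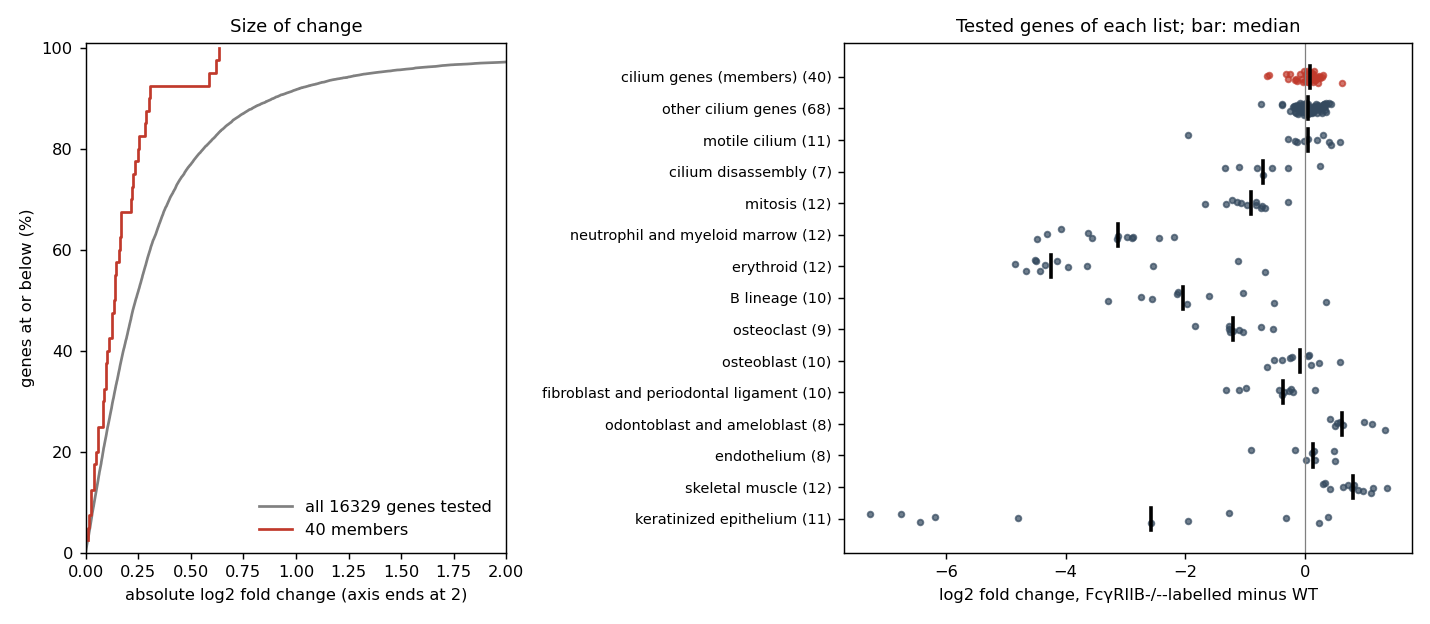
Left, share of genes (%) at or below a given absolute log2 fold change for the 40 cilium genes and all 16329 tested genes, with the axis ending at 2. Right, log2 fold change (the libraries labelled *FcγRIIB*-/- minus WT) of each tested gene in each list, with a bar at the median. The cilium genes reach 100% at 0.64, and their points lie around a median of 0.09 while the medians of the marrow lists lie at -3.13 and -4.24.

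Markers of marrow cells, epithelium, muscle and teeth differed between the groups. The counts below stand against 14% of all tested genes called higher and 19.3% called lower. All 12 neutrophil and myeloid markers were lower, with a median log2 fold change of -3.13 and sums of 1199 to 3641 CPM in WT and 146 to 439 CPM in the libraries labelled *FcγRIIB*-/-. All 12 erythroid markers were lower (median -4.24, sums of 902 to 1145 and 240 to 351 CPM), as were 8 of 10 B lineage markers (median -2.04, sums of 81.1 to 161 and 57.4 to 84.6 CPM) and 8 of 9 osteoclast markers (median -1.19, sums of 906 to 1292 and 313 to 566 CPM). Of 11 tested markers of keratinized epithelium 8 were lower and 1 higher, with a median of -2.57 and sums, carried mostly by *Krt14* and *Krt5*, of 3860 to 10127 CPM in WT and 4679 to 5883 CPM in the libraries labelled *FcγRIIB*-/-. Higher were 5 of 12 skeletal muscle markers (median 0.81, sums of 8182 to 19117 and 19257 to 33621 CPM) and 5 of 8 odontoblast and ameloblast markers (median 0.62, sums of 12172 to 31390 and 34465 to 57617 CPM). Of the osteoblast markers 3 of 10 were lower (median -0.08), and of the fibroblast and periodontal ligament markers 6 of 10 were lower (median -0.36, sums of 22959 to 36453 and 10586 to 15189 CPM). Of 8 endothelial markers 2 were higher and 1 lower (median 0.14, sums of 564 to 646 and 556 to 649 CPM). These markers moved with the same labels as the cilium genes, and their part in the values of the cilium genes was not tested.

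Motile cilia use many of the same transport genes, so their own markers were examined too. Of 16 markers 11 were tested, 1 was lower (*Ccno*, -1.95, on at most 24 counts in a library) and 10 did not pass, with sums of 15.8 to 21.8 CPM in WT and 20.3 to 21.6 CPM in the libraries labelled *FcγRIIB*-/-. *Foxj1*, the master regulator of motile cilia, had 29 to 105 counts per library, and *Mcidas* and *Spag6l* had at most 1.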

How the data were processed

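Poly(A) RNA of 9 mandibles, each from a separate mouse, was sequenced by the authors from directional libraries. The authors trimmed reads with Trim Galore and mapped them to mm10 with HISAT 02.1.0. They then counted reads per gene with featureCounts. The deposited values are whole-number counts without normalization. The annotation, the strand setting and the handling of reads shared by genes are not given in the sources used here. The table held 1 further column of values that matched no labelled sample and was not used.

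From the counts, edgeR 4.0.16 in R 4.3.3 was run over the whole table: filterByExpr (minimum count 10), TMM, glmQLFit and glmQLFTest on genotype alone, and adjustment by Benjamini-Hochberg at 0.05. Standard errors are the log2 fold change, unsigned, divided by the root of F. CPM is the count scaled to 1e6 of TMM-normalized library size. Exact permutation tests used log2(CPM + 0.5). Totals of 21453880 to 28991631 counts per mouse set the precision. No near-identical pair of libraries was found (0 pairs), and the script was tested on simulated data. Exon lengths and shared exons came from GENCODE, coordinates and start windows from RefSeq GRCm38.p6.

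Values per mouse are given for called genes whose groups do not overlap, for *Fcgr2b* and for the 6 smallest changes. Of the other cilium genes, up to 5 called genes in each direction are named. Some genes of the Hedgehog list are not reported here. The genes and lists were chosen with earlier results of these data known. Alternatives were RLE, upper-quartile and no scaling factors, other count filters, a replicate block, DESeq2 1.42.0, a threshold of 0.01 and leaving out each mouse.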

Additional observations from a re-analysis of the deposited data

Results flagged for a closer look

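Among 80 groups of values examined (40 genes in 2 groups), 6 had a mouse far from the rest by Dixon's criterion at 95%, where chance alone gives about 1 in 20. *Ift52* was 28.5 CPM in replicate 3 of the libraries labelled *FcγRIIB*-/- and 32.6 to 33.2 CPM in the other 3 mice. In the same mouse *Ift122* was 24.2 CPM, against 31.7 to 32.1 CPM in the others. *Ift43* was 18.9 CPM in WT replicate 3 and 15.5 to 16.5 CPM in the other 4 WT mice. *Gpr161* was 4.20 CPM in the same WT mouse, against 3.49 to 3.66 CPM. *Ttc21b* was 14.7 CPM in WT replicate 1 and 16.1 to 16.6 CPM in the others. *Bbs1* was 14.7 CPM in WT replicate 5 and 16.6 to 17.03 CPM in the others. Of these genes, *Gpr161* was called in the comparison of the groups, and without WT replicate 3 its adjusted p was 0.0979 (edgeR).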

How the results depend on the processing

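*Kif7* and *Ift140* kept their calls and directions under all 8 other settings and all 9 fits that left out a mouse, with log2 fold changes of 0.54 to 0.73 and -0.71 to -0.58. The count of higher cilium genes fell from 2 to 1 with library totals alone, with no filter on low counts, with the replicate block and at a threshold of 0.01, and ranged from 1 to 2 without each mouse. The count of lower cilium genes fell from 3 to 1 with the replicate block and at 0.01, and ranged from 1 to 4 without each mouse. RLE and DESeq2 called 6 of the 40 by adding *Ift172*. Of the other cilium genes, 12 were higher in the comparison as reported, 5 with library totals alone, 6 with the replicate block and 3 at 0.01. Lower were 3, and 5 with library totals alone. Over all genes, 2289 were higher as reported, 1309 with library totals alone and 869 at 0.01, and 3144 were lower as reported and 1763 at 0.01. Of 680 values of the 40 genes under 17 alternatives, 615 kept direction and side of the threshold, 26 lost the call, 6 gained it and 33, in 11 genes, changed sign, none of them called and all at an absolute log2 fold change of at most 0.0632. With library totals alone 7 genes turned below 0: *Ift80* (-0.063), *Bbs1* (-0.059), *Ift81* (-0.049), *Wdr35* (-0.040), *Ift88* (-0.029), *Dync2li1* (-0.019) and *Tulp3* (-0.016). With the replicate block 5 did so: *Ift80* (-0.030), *Bbs1* (-0.025), *Wdr35* (-0.018), *Ift81* (-0.0098) and *Bbs10* (-0.0025). *Arl13b* turned above 0 with RLE (0.0025), upper-quartile scaling (0.0051) and DESeq2 (0.0026). Without each mouse the sign varied in *Ift52* (-0.046 to 0.025), *Ift80* (-0.024 to 0.062), *Ift81* (-0.0096 to 0.092), *Ift88* (-0.00019 to 0.088), *Bbs1* (-0.051 to 0.084), *Ttc8* (-0.075 to 0.040), *Bbs10* (-0.00097 to 0.21) and *Arl13b* (-0.054 to 0.030). The cause of these shifts was not tested.

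Replicate numbers name different mice, and the correlation of deviations between mice with the same number was 0.0969, 0.0276, -0.114 and -0.0739, with 0 of 4 over 0.1. Between mice with different numbers it ran from -0.206 to 0.153. These values gave no sign of a pairing by number, but 4 correlations are too few to exclude it. With the replicate block, 1 cilium gene was higher (*Kif7*) and 1 lower (*Ift140*), and 1594 and 2410 of all genes. Depth limits *Gpr161* most, at 32 counts in its lowest library.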
